A study of Mus musculus with 6 samples.

Results

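Ribosome biogenesis genes and genes of RNA polymerase I were followed in mouse intestinal organoids exposed to tyramine. The group held 48 genes, taken by symbol from a fixed list, of the 24786 gene rows in the deposited counts, and all 48 had enough counts to be tested. Organoids are cultured epithelial structures that grow from gut stem cells, and tyramine is an amine that gut bacteria make from tyrosine. Wild-type organoids were taken apart into single cells over 10 min and then cultured for 16 h, either with 100 µM tyramine (3 libraries) or as controls (3 libraries). Control titles carry the solvent name DMSO, whereas the design text speaks of control medium, and the solvent of the tyramine cultures was not given in the sources used here. All 6 libraries carry the label WT. Mouse strain, sex and age were not given in the sources used here, and nor was a separate mouse or culture for each replicate, so every p-value below reflects spread among these 6 libraries alone, which may be technical.

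Ribosomes are built in the nucleolus. RNA polymerase I copies the ribosomal DNA into a long precursor RNA, small nucleolar ribonucleoproteins (snoRNPs) guide its chemical modification and cleavage, and large teams of assembly factors fold the pieces into the small and large subunits that leave the nucleus. Dividing epithelial progenitors of the gut crypt are known for large nucleoli and high ribosome output, and the transcription factor MYC is a known activator of many of these genes through the E-box sequence CACGTG.

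The stretches before the start site are shown for a pair of members with the E-box there and for the pair of members with the smallest p-values in the comparison of tyramine with control. RefSeq promoter windows on GRCm38.p6 (250 bases before to 50 after each start) were matched for 42 of the 48 members. CACGTG, which reads the same on both strands, was present in a window of 9 of the 42 (21.4%), against 11.9% of 9503 tested genes with a window and 8.09% of all 27025 genes with one. It lay wholly before the start in Nop2, an RNA methyltransferase of the large subunit path, and in Rrn3, the initiation factor that brings RNA polymerase I to ribosomal DNA. None of the 8 members that rose with tyramine held CACGTG in its window, which says only that these letters are not there. Capitals mark CACGTG. Each line runs 5′ to 3′ on the gene's strand and leaves out bases that the annotation counts as exon: Nop2 chr6:125131633-125131882 plus strand, Rrn3 chr16:13780449-13780698 plus strand, Rrp9 chr9:106477059-106477268 plus strand and Noc3l chr19:38819238-38819487 minus strand. The Rrp9 stretch precedes the RefSeq start but lies inside the Rrp9 gene of GENCODE M21, which includes a transcript that begins further upstream.
Nop2: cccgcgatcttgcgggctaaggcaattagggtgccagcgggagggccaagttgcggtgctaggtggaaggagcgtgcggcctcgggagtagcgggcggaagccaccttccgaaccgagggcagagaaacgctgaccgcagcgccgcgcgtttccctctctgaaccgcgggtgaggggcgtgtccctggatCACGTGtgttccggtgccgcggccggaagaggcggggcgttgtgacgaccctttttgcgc
Rrn3: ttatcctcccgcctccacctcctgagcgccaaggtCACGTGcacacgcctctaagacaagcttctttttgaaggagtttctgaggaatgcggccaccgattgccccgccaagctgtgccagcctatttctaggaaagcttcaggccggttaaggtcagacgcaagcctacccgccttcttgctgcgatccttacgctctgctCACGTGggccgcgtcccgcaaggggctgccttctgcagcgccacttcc
Rrp9: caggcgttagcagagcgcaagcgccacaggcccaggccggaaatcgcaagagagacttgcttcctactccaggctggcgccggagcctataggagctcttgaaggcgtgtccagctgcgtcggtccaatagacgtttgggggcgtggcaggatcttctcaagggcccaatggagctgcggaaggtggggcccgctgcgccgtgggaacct
Noc3l: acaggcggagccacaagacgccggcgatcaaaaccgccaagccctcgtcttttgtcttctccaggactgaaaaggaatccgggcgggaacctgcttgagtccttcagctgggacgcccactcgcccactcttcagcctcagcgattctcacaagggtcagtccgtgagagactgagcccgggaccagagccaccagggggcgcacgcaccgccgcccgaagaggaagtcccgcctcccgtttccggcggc
The Nop2 stretch holds 1 E-box, which begins 60 bases before the start, and the Rrn3 stretch holds 2, which begin 215 and 48 bases before it. In the other 7 members with the E-box (Grwd1, Ltv1, Mybbp1a, Pes1, Tsr1, Utp20 and Wdr43) it lay at or after the start. The variant E-box CACGCG, searched with its reverse CGCGTG, was in 33.3% of member windows and 20.1% of tested genes. The GC box GGGCGG, searched with its reverse CCGCCC, was in 81.0% against 68.3%, and TATAAA, searched with its reverse TTTATA, in 4.76% against 9.05%. Those motifs and CACGTG differ in their letters, so a match to one is no match to another.

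The libraries held 28316372 to 35035955 counts. The 10 epithelial markers (Epcam, Cdh1, keratins and others) summed to 17264 to 18684 CPM (counts scaled to library size) in controls and 14908 to 16577 CPM with tyramine, a sum made up largely of keratins. Of the 10, 5 fell (Epcam at a log2 fold change of -0.44, Krt19 at -0.67, Lgals4 at -1.05, Vil1 at -1.43 and Cdx2 at -1.79), Cdh1 (0.39) and Krt18 (0.67) rose and 3 missed the threshold, with a median of -0.55. Markers of other cell types were low: 6 fibroblast genes summed to at most 9.12 CPM in any library, 6 immune genes to 4.56, 4 endothelial genes to 2.40 and 5 glial and neuronal genes to 4.78. Of all 12139 genes tested, 25.8% changed: 12.5% rose and 13.3% fell (1518 and 1609 genes, and 934 to 1510 rising with each library left out). Tyramine replicate 3 stood apart from the other tyramine replicates, with a chi-square per degree of freedom of 95.1 and 100.4 against 53.3 between those. Without it 8 members rose, 6 of them shared with the full set: Polr1c and Nop14 were lost, and Polr1e and Noc2l passed. A list of 32 proliferation genes moved with the groups: its summed level was 4219 to 4960 CPM in controls and 354 to 458 CPM with tyramine. The part of these marker and proliferation genes in the values below was not tested, and in bulk RNA fewer cells of a type and less RNA per cell cannot be told apart.

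Most ribosome biogenesis genes were fitted within 1.5-fold of control, and those past the threshold rose. Of the 48 members, 8 rose (16.7%) and 0 fell, and 40 were not past the threshold (edgeR quasi-likelihood test with Benjamini-Hochberg adjustment over all genes tested, threshold 0.05). The background over all genes was 12.5% rising and 13.3% falling, so the share that rose was near the background. The 8 were Rrp9, Noc3l, Ddx21, Ebna1bp2, Nop58, Polr1c, Nol9 and Nop14, with log2 fold changes (tyramine minus control) of 0.28 to 0.80. At an unadjusted p under 0.05, 22 members were on the rising side and 3 (Nop56, Npm1 and Nolc1) on the falling side, against 18.4% of all genes on each side, and DESeq2 and limma-voom each called 1 member falling (Nolc1). Leaving out control replicate 1 lowered the rising count to 2, and leaving out control replicate 2 lowered it to 3. With libraries scaled to their totals alone, 4 rose and 3 fell.

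**Figure D1:**
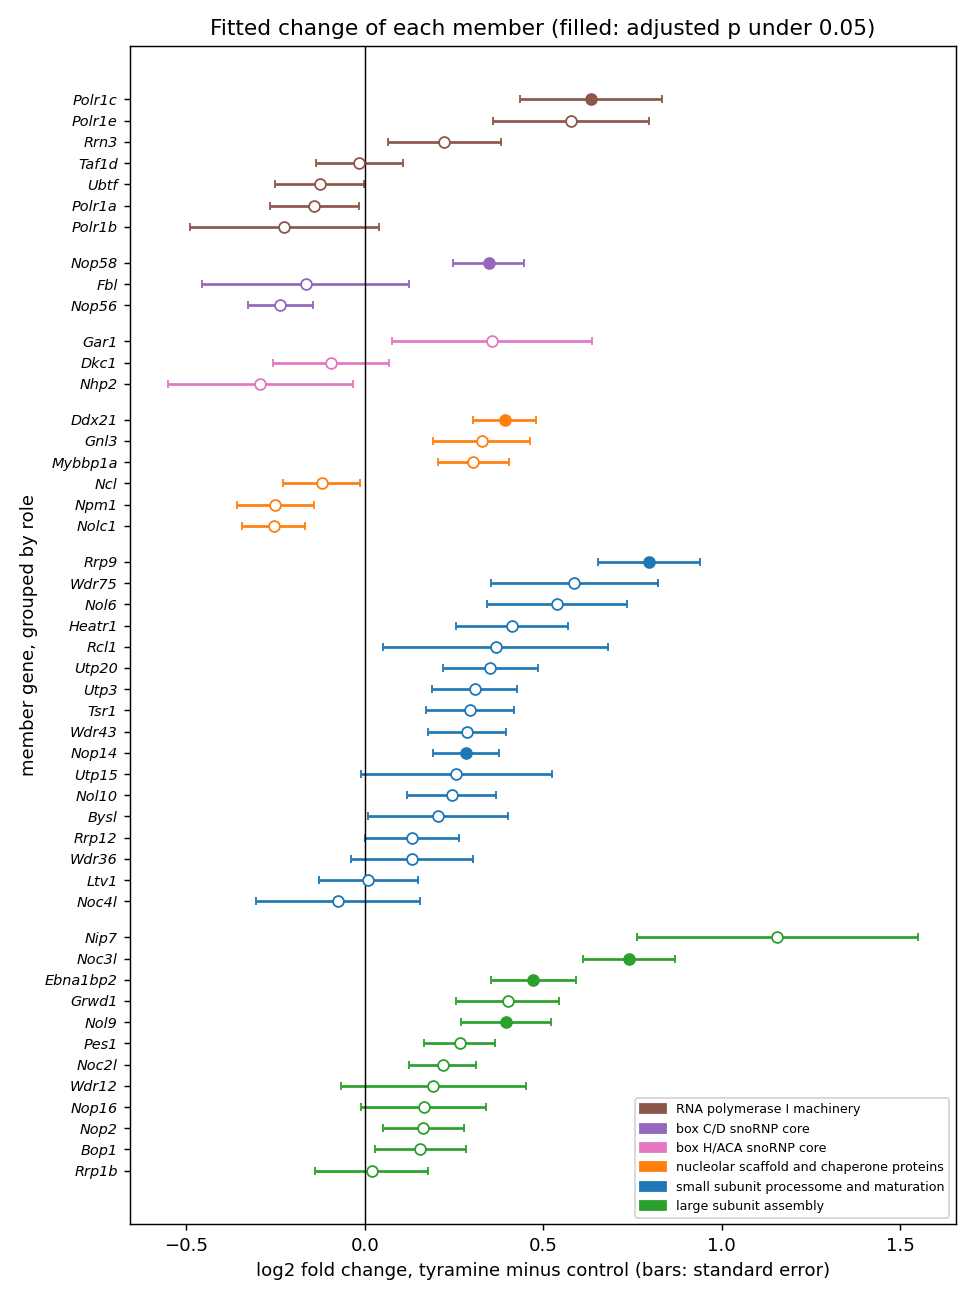
Log2 fold change (tyramine minus control, bars ± 1 standard error) of each of the 48 members, grouped by role and coloured by role; filled points passed the adjusted p threshold. Nip7 lies farthest right at 1.16 with a wide bar, and the 8 filled points all lie right of 0.

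Changes were small. The fitted change was under 1.5-fold in 43 of 48 members (89.6%) against 52.7% of all genes, and only Nip7 was fitted at 2-fold or more, against 27.2% of all genes. The members are better measured than most genes, with a median standard error of 0.13 on the log2 scale against 0.32. The median log2 fold change of the members was 0.25, against 0.0041 over all genes tested. Of the 48 members, 36 (75.0%) had a value above 0 against 50.2% of all genes. This lean was not particular to them. In lists taken up below, the share above 0 was 69.8% (other small subunit), 87.0% (other large subunit), 74.7% (cytosolic ribosomal proteins) and 72.7% (RNA polymerase III). It was 75.0% for other RNA polymerase I genes, 53.6% for exosome and trimming genes, 38.5% for the MYC network and 0% for proliferation genes. In 21 members all 3 tyramine libraries lay above all 3 controls, and in 3 (Nop56, Npm1 and Nolc1) all lay below. Over all genes those shares were 20.9% and 23.6%. The members summed to 12031, 12617 and 14735 CPM in control replicates 1 to 3 and to 13345, 13639 and 13558 CPM in the tyramine replicates, so the sums overlapped. Without Ncl and Npm1, the most abundant members, the sums were 6337, 6505 and 7005 CPM in controls and 7379, 7821 and 7638 CPM with tyramine, and the groups did not overlap.

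Among the RNA polymerase I genes, Polr1c rose and the other 6 of 7 members missed the threshold; the median log2 fold change was -0.015. Polr1c, a subunit shared by RNA polymerases I and III (GRCm38 chromosome 17, 46243920 to 46248054, minus strand), measured 25.3, 30.1 and 27.7 CPM in control replicates 1 to 3 and 47.9, 36.4 and 44.6 CPM in tyramine replicates 1 to 3. Every tyramine library lay above every control, and the log2 fold change was 0.63 (SE 0.20, edgeR adjusted p = 0.0404). The call was lost without any 1 library except tyramine replicate 2 (adjusted p up to 0.146), and it was also lost with totals alone, no filter and a replicate block.

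Of the 2 largest subunits, which form the catalytic core, Polr1a averaged 139 ± 4.48 CPM (SD, n = 3) in controls and 126 ± 15.9 CPM with tyramine, and Polr1b 26.4 ± 5.58 and 22.5 ± 5.13 CPM. Both overlapped between groups. Polr1e, a subunit of the polymerase's initiation module, averaged 29.2 ± 2.81 and 43.6 ± 10.0 CPM, with no overlap but an edgeR adjusted p = 0.0802. Ubtf, which binds and opens ribosomal DNA, averaged 231 ± 13.4 and 212 ± 31.8 CPM. The promoter selectivity factor subunit gene Taf1d averaged 221 ± 31.1 and 219 ± 9.27 CPM, and Rrn3 averaged 58.7 ± 4.37 and 68.5 ± 8.77 CPM. The groups overlapped in all 3.

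Of 3 member genes from the core of the box C/D snoRNP, which methylates ribosomal RNA, Nop58 rose and Nop56 and Fbl missed the threshold. A further core gene, Snu13, was not a member and is counted below with the other small subunit genes. It overlapped between groups at a log2 fold change of -0.51 (SE 0.32, edgeR adjusted p = 0.295). Nop58 (chromosome 1, 59684971 to 59719044, plus strand) measured 253, 240 and 278 CPM in controls and 315, 321 and 344 CPM with tyramine. It rose by 0.35 on the log2 scale (SE 0.098, edgeR adjusted p = 0.0269) with no overlap between groups. Its call was lost without control replicate 1 or 2, without tyramine replicate 2 and with totals alone. Its partner Nop56 (chromosome 2, 130274430 to 130279313, plus strand) measured 269, 257 and 256 CPM in controls and 221, 219 and 225 CPM with tyramine. All tyramine values lay below all controls, and the log2 fold change of -0.24 (SE 0.090) was not past the threshold (edgeR adjusted p = 0.0843), although with totals alone it was (adjusted p = 0.0256).

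NOP56 and NOP58 are related proteins that sit side by side in the same particle, and the ratio of their transcripts was computed in each library. The ratio of Nop58 to Nop56 CPM was 0.941, 0.932 and 1.09 in controls and 1.43, 1.47 and 1.53 with tyramine. This pair was chosen after its values were seen, so the ratio is given with no test. Fbl, the methyltransferase of the particle, measured 36.0, 27.5 and 33.5 CPM in controls and 39.3, 29.3 and 17.9 CPM with tyramine. These overlap, tyramine replicate 3 is the lowest of the 6, and the log2 fold change was -0.17 (SE 0.29), and 0.087 without that library.

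The box H/ACA snoRNP converts uridines of ribosomal RNA to pseudouridine. None of the 3 members from its core passed the threshold (edgeR, with 0 also at an unadjusted p under 0.05 and 0 by DESeq2 and limma-voom). Its core gene Nop10 was not a member. Dkc1, the pseudouridine synthase, measured 99.9, 117 and 99.7 CPM in controls and 95.3, 121 and 81.0 CPM with tyramine. Nhp2, which binds the guide RNA, measured 50.3, 70.3 and 66.4 CPM in controls and 71.3, 46.8 and 34.5 CPM with tyramine. Gar1, a core subunit needed for catalysis, measured 16.4, 15.2 and 13.3 CPM in controls and 22.8, 15.1 and 19.7 CPM with tyramine. All 3 overlapped between groups. The log2 fold changes were -0.094 (SE 0.16), -0.29 (SE 0.26) and 0.36 (SE 0.28).

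Among 6 scaffold and chaperone genes of the nucleolus, Ddx21 rose and 5 were not past the threshold (3 rose without tyramine replicate 1). Fitted values were above 0 in 3 of the 6 and below in 3. Ddx21, an RNA helicase that acts in ribosomal RNA transcription and processing (chromosome 10, 62580251 to 62602281, minus strand), measured 531, 588 and 610 CPM in controls and 723, 775 and 769 CPM with tyramine. The groups were well apart (log2 fold change 0.39, SE 0.088, edgeR adjusted p = 0.00901), and the call was lost only without control replicate 1 (adjusted p = 0.0532). Mybbp1a, a nucleolar protein that binds MYB, averaged 315 ± 7.11 and 389 ± 39.9 CPM with no overlap, just over the threshold (edgeR adjusted p = 0.0503). Gnl3, nucleostemin, a nucleolar GTPase of proliferating cells, averaged 126 ± 10.1 and 159 ± 23.7 CPM, with overlap.

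The major structural proteins of the nucleolus had fitted values below 0. Ncl, nucleolin, measured 4743, 5024 and 6448 CPM in controls and 5035, 4870 and 5005 CPM with tyramine. Control replicate 3 alone was high, and without it the log2 fold change of -0.12 became 0.021. Npm1, nucleophosmin, averaged 1107 ± 166 and 931 ± 16.5 CPM, and Nolc1, a chaperone of snoRNPs, 641 ± 23.8 and 537 ± 38.2 CPM. Both had all tyramine values below all controls but missed the threshold (edgeR adjusted p = 0.124 and 0.0599), and both passed it with totals alone. Reads of Npm1 and Fbl can be shared with near-identical copies in the genome, and their values are therefore uncertain, since how such reads were counted was not given in the sources used here.

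**Figure D2:**
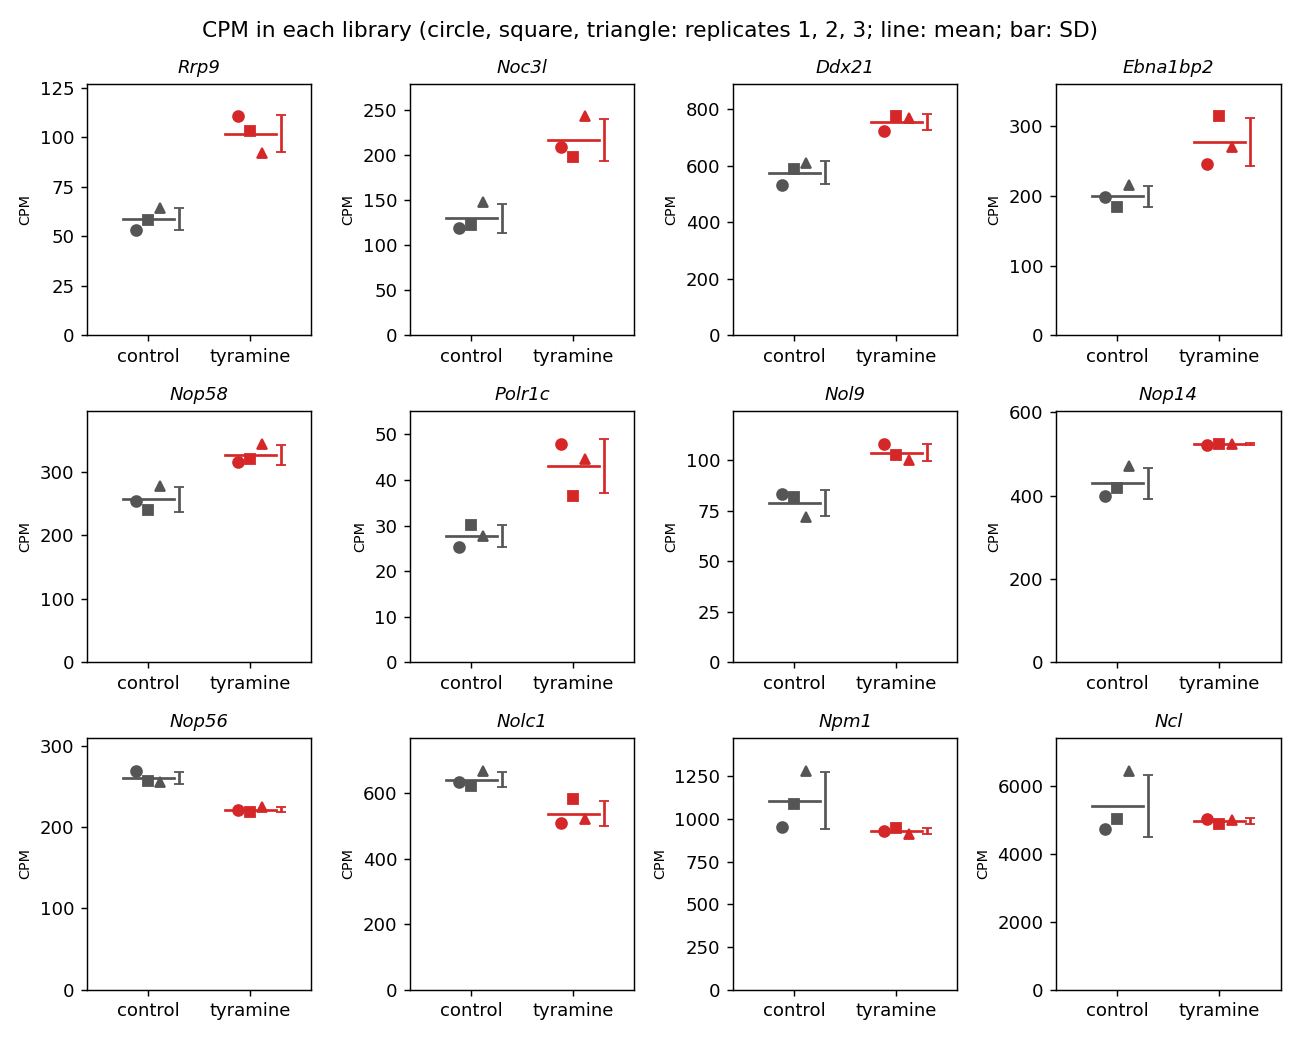
CPM of 12 members in each library (circle, square and triangle are replicates 1, 2 and 3; lines are means and bars are SD, n = 3); all axes start at 0. The first 8 panels are the members that rose, with all tyramine values above all controls, Nop56, Nolc1 and Npm1 show the opposite order, and Ncl overlaps.

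Small subunit factors had fitted values above 0 in nearly all members, though few passed the threshold. Of 17, 2 rose (1 to 4 with single libraries left out), 0 fell and 15 missed the threshold (edgeR). The share that rose was 11.8%, near the 12.5% of all genes, and 13.3% of all genes fell. At an unadjusted p under 0.05, 9 were on the rising side and 0 on the falling side, against 18.4% of all genes on each side. DESeq2 and limma-voom also called 0 falling. The fitted value was above 0 in 16, all but Noc4l (94.1% against 50.2% of all genes), with a median log2 fold change of 0.29. With totals alone 15 were above 0. Rrp9, a specific protein of the U3 snoRNP, which pairs with the precursor and is needed for its early cleavages (chromosome 9, 106475963 to 106485424, plus strand), measured 53.1, 58.4 and 64.5 CPM in controls and 110, 103 and 91.9 CPM with tyramine. This was a 1.74-fold rise (0.80 on the log2 scale with SE 0.14, edgeR adjusted p = 0.0028), and it was called under every alternative run, with an adjusted p of at most 0.0216.

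Nop14, which escorts early small subunit precursors (chromosome 5, 34638536 to 34660148, minus strand), measured 400, 418 and 471 CPM in controls and 520, 524 and 525 CPM with tyramine. It rose by 0.28 on the log2 scale (SE 0.092, edgeR adjusted p = 0.0466), and the tyramine libraries were nearly equal. The call was lost without any 1 library except control replicate 3 (adjusted p up to 0.188). It was also lost with totals alone, RLE factors, no filter, a replicate block and robust estimation off. Wdr75, Utp15, Wdr43 and Heatr1 belong to the subcomplex that binds the precursor RNA first and is linked to its transcription. Their log2 fold changes were 0.59, 0.26, 0.29 and 0.41, and none was past the threshold (edgeR adjusted p = 0.0974, 0.546, 0.0815 and 0.0828). Wdr43 and Heatr1 did not overlap between groups.

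Nol6, a scaffold of the processome, had a log2 fold change of 0.54 (SE 0.20). Utp20, a large protein of the processome, was at 0.35 (SE 0.13) and Utp3 at 0.31 (SE 0.12). None of these overlapped between groups. Tsr1, a GTPase-like factor of late cytoplasmic maturation, and Nol10, an early nucleolar factor, also did not overlap, at 0.29 (SE 0.12) and 0.24 (SE 0.12). The rest overlapped: Bysl at 0.21, Wdr36 and Rrp12 at 0.13 each, Ltv1, an export adaptor of the small subunit, at 0.0099, Rcl1, a factor of the early cleavages, at 0.37 (SE 0.31) and Noc4l, the partner of Nop14, at -0.075 (SE 0.23). Nop14 and its partner were fitted on opposite sides of 0, but Noc4l was above 0 without control replicate 1 (0.096) or tyramine replicate 3 (0.051). The difference between Nop14 and Noc4l was not tested.

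Large subunit factors were fitted above 0 in 12 of 12, against 50.2% of all genes, with a median log2 fold change of 0.24 (11 of 12 with totals alone). Of these, 3 rose (25% against 12.5% of all genes), 0 fell (against 13.3%) and 9 missed the threshold (edgeR). At an unadjusted p under 0.05, 7 were on the rising side and 0 on the falling side, against 18.4% of all genes on each side. DESeq2 and limma-voom called 0 falling. The count of 3 was 1 without control replicate 1 or 2. Noc3l, which with other NOC proteins moves large subunit precursors through the nucleus (chromosome 19, 38788128 to 38819237, minus strand), measured 119, 122 and 148 CPM in controls and 209, 199 and 243 CPM with tyramine. It rose 1.67-fold (0.74 on the log2 scale with SE 0.13, edgeR adjusted p = 0.00237) and was called under every alternative run, with an adjusted p of at most 0.0194.

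Ebna1bp2, an early large subunit factor (chromosome 4, 118620799 to 118627776, plus strand), measured 199, 185 and 215 CPM in controls and 247, 314 and 270 CPM with tyramine. The log2 fold change was 0.47 (SE 0.12, edgeR adjusted p = 0.0153), and the call was lost when control replicate 1 or 2 or tyramine replicate 2 was left out. Nol9, the RNA kinase that acts in removing the spacer between the large subunit RNAs (chromosome 4, 152039321 to 152061494, plus strand), measured 83.1, 81.7 and 71.7 CPM in controls and 108, 103 and 100.0 CPM with tyramine. Both genes had all tyramine values above all controls. Nol9 had a log2 fold change of 0.39 (SE 0.13, edgeR adjusted p = 0.0444). Its call was lost without any 1 library except tyramine replicate 3, and with totals alone, no filter and a replicate block.

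Bop1, Pes1 and Wdr12 encode the trimeric PeBoW complex needed to process the large subunit RNAs, and none was past the threshold. Their log2 fold changes were 0.16 (SE 0.13), 0.27 (SE 0.099) and 0.19 (SE 0.26), and Bop1 and Pes1 did not overlap between groups. Grwd1, a histone-binding factor, and Noc2l, the partner of Noc3l, also did not overlap, at 0.40 (SE 0.15) and 0.22 (SE 0.093). Nop2 was at 0.16, Nop16 at 0.16 and Rrp1b at 0.020, all with overlap. Nip7, a late-joining factor, measured 11.6, 12.7 and 13.5 CPM in controls and 42.5, 12.8 and 28.8 CPM with tyramine. Tyramine replicate 2 lay among the controls, and the log2 fold change of 1.16 (SE 0.39) missed the threshold (edgeR adjusted p = 0.0566) but passed it without that library.

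Levels between genes were compared as CPM per kb of the longest transcript annotated as principal for each gene. That length was 8202 bases for Ncl and 10012 for Wdr12, against 1633 for Npm1 and 3036 for Nip7. Which transcript forms were expressed was not tested, and a shorter form would give a higher level, so the order below depends on this choice. Npm1 and Ncl were highest, at 678 ± 102 and 659 ± 111 CPM per kb in controls (SD, n = 3), and did not differ beyond their spread. Nip7 and Wdr12 were lowest, at 4.14 ± 0.323 and 4.70 ± 0.972 CPM per kb, and also did not differ beyond their spread. Within the box C/D particle, Nop58 and Nop56 were near each other at 150.0 ± 11.3 and 139 ± 3.90 CPM per kb, whereas Fbl was at 27.0 ± 3.63 CPM per kb. Among polymerase I subunits the order in controls was Polr1c at 21.1 ± 1.82, Polr1a at 15.1 ± 0.486, Polr1e at 9.79 ± 0.942 and Polr1b at 6.59 ± 1.39 CPM per kb, each apart from its neighbour by more than their SDs.

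**Figure D3:**
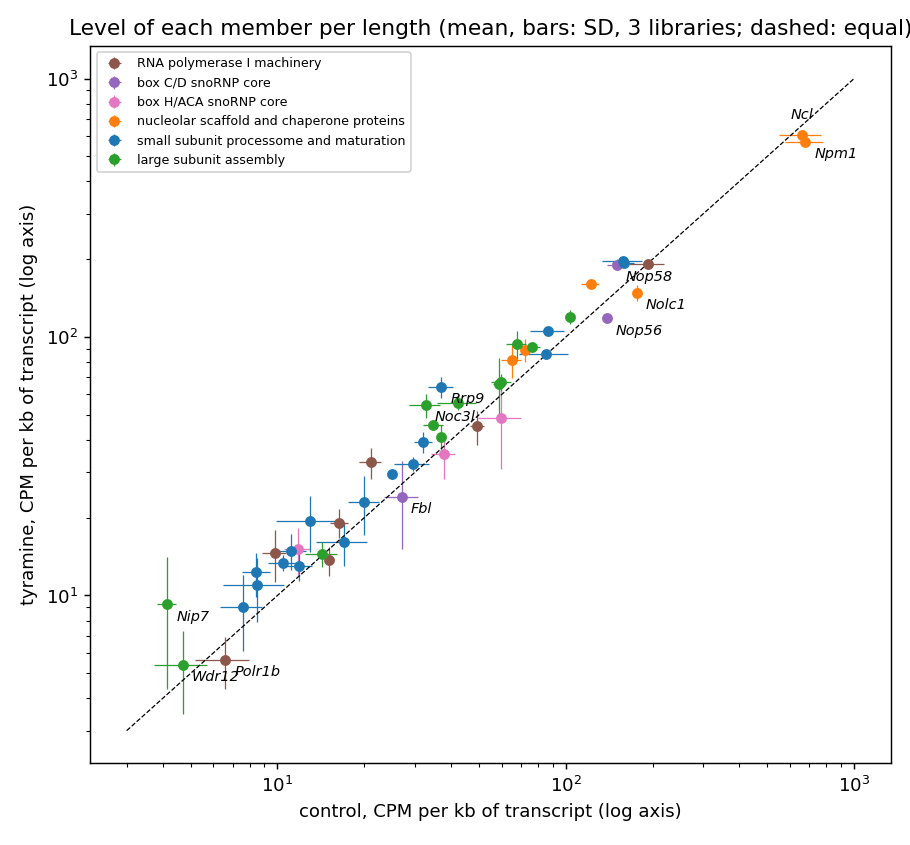
Mean level of each member in control (x axis) and tyramine (y axis) libraries, in CPM per kb of transcript on log axes; bars are SD (n = 3) and the dashed line marks equal levels. Members span from about Nip7 (4.14 in controls) to Npm1 (678), and most lie close to the line. Nip7 lies farthest above it with a wide bar (9.23 ± 4.90 with tyramine), and Rrp9, Noc3l, Polr1c, Wdr75 and Polr1e also lie above it.

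Several members also carry snoRNA genes in their introns, a feature the gene list did not use. In the GENCODE M21 annotation, 8 of 48 members (16.7%) held at least 1 snoRNA gene on the same strand in an intron, against 1.92% of 11419 tested protein-coding genes. These hosts were Taf1d, Nop56, Nop58, Dkc1, Ncl, Gnl3, Wdr43 and Tsr1. Their log2 fold changes ran from -0.24 (Nop56) to 0.35 (Nop58), and only Nop58 was past the threshold. Of the 28 snoRNA genes, 13 were in the counts under their own symbol, and none exceeded 0.944 CPM in any library, so nothing can be said of the snoRNAs themselves.

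Other ribosome assembly genes, listed from general knowledge of the pathway, were also measured. Of 43 other small subunit genes, 13 rose (30.2%), Nol7 fell and 29 missed the threshold (median log2 fold change 0.35). A list of 54 other genes, mostly of the large subunit path, had 16 rising (29.6%), 0 falling and 38 short of the threshold (edgeR, median 0.33). On the falling side, 1 had an unadjusted p under 0.05, and DESeq2 and limma-voom called 0. This list also holds genes of snoRNP cores or their assembly: Nop10, Naf1, Shq1, Nufip1, Ruvbl1, Ruvbl2 and Pih1d1. Nufip1 and Ruvbl1 are among the 16 that rose, so the share is not that of large subunit factors alone. The background was 12.5% rising and a median of 0.0041. Leaving out control replicate 1 or 2 lowered the small subunit count of 13 to 6 or 8.

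Zfp622, a late cytoplasmic large subunit factor, measured 80.3, 91.0 and 87.8 CPM in controls and 166, 212 and 234 CPM with tyramine, a log2 fold change of 1.24 (SE 0.14, edgeR adjusted p = 0.000205). Riok2, a kinase of late small subunit maturation, rose from 76.0 ± 10.7 to 171 ± 46.4 CPM (2.25-fold), and Ddx47, a helicase of early processing, from 90.5 ± 3.40 to 174 ± 30.3 CPM (1.93-fold). Rrp7a, a small subunit factor, rose 1.65-fold. Las1l, the endonuclease that cuts the spacer between the large subunit RNAs and works with Nol9, rose 1.70-fold from 233 ± 32.6 to 396 ± 16.5 CPM, and Gnl2, a nucleolar GTPase, rose 1.67-fold. These 6 kept their calls with each library left out. Nol7 fell 1.66-fold and lost its call without any 1 control library.

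Of 12 other RNA polymerase I genes tested, Twistnb rose (1.66-fold, edgeR adjusted p = 0.0123; lost without control replicate 2 or 3) and 11 were not past the threshold. This gene encodes a stalk subunit of the polymerase and rose from 54.9 ± 9.26 to 91.4 ± 13.7 CPM. The list also holds subunits shared with other RNA polymerases (Polr1d, Polr2e, Polr2f, Polr2h and Polr2l), so its count is not of polymerase I alone. Of 79 cytosolic ribosomal protein genes, whose products are the parts being assembled, 4 rose, Rpl3 fell and 74 missed the threshold (median log2 fold change 0.15). These shares, 5.06% rising and 1.27% falling, were below the 12.5% and 13.3% of all genes. The 4 were Rpl19, Rpl24, Rplp0 and Rps14, each at 1.21-fold to 1.81-fold. These 4 and Rpl3 lost their calls when single libraries were left out, and ribosomal protein genes share reads with many processed copies, so single values are uncertain.

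The MYC transcript itself was not past the threshold: Myc measured 27.0, 22.4 and 29.2 CPM in controls and 38.2, 31.2 and 22.3 CPM with tyramine, which overlap (log2 fold change 0.22, SE 0.25, edgeR adjusted p = 0.587). Among 13 genes of the MYC network, Mga, a MAX-binding repressor, rose 2.24-fold, and 3 fell: Mlx (1.52-fold), Mlxipl, the carbohydrate response factor ChREBP (2.89-fold), and Mycn. Mycn was near the limit of detection, at 1.51 ± 0.871 CPM in controls and 0.0419 ± 0.0726 CPM with tyramine, and its call was lost when any 1 control or tyramine replicate 1 or 3 was left out. Mlxipl lost its call without control replicate 2 (adjusted p = 0.0511).

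The members stood far from the proliferation genes in the same libraries. Of the 32 proliferation genes, 31 fell and Pcna missed the threshold. Their median log2 fold change was -3.76, against 0.25 for the members. Mki67, a marker of cycling cells, measured 1281, 1426 and 1488 CPM in controls and 25.9, 24.9 and 24.2 CPM with tyramine. The smallest of the 31 falls was still larger than any change fitted in the 48 members.

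**Figure D4:**
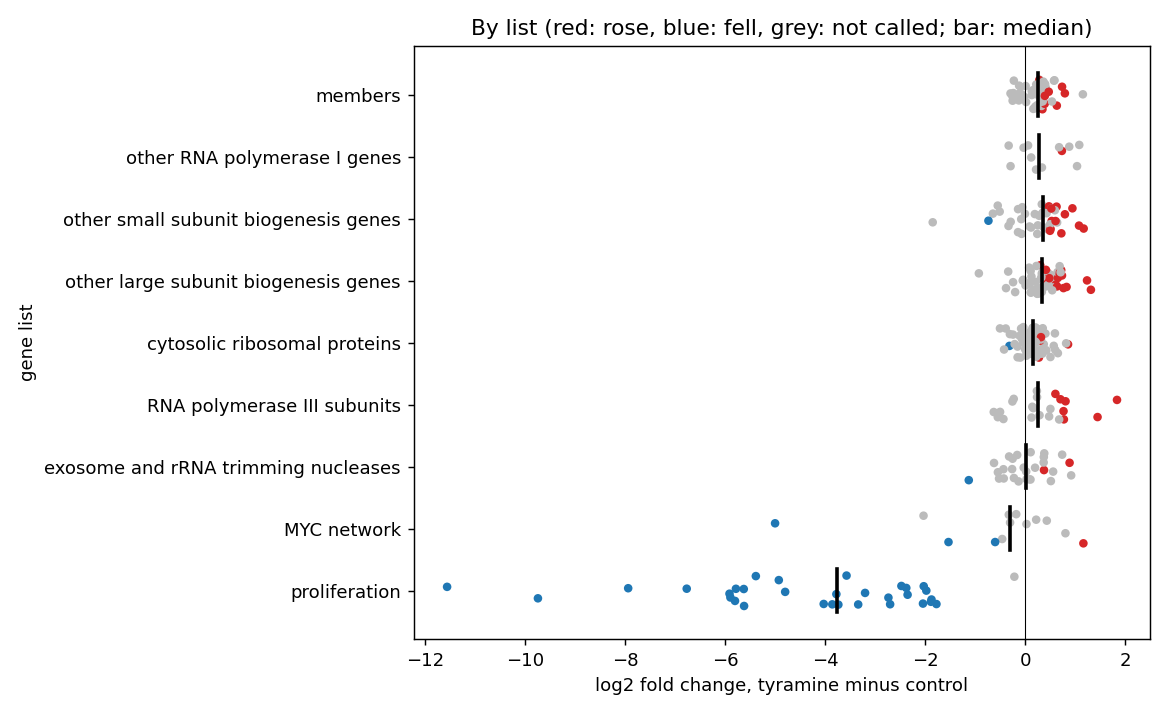
Log2 fold change (tyramine minus control) of each tested gene in the member list and 8 other lists; red points rose, blue points fell, grey points were not called and black bars are list medians. The medians of the member and subunit assembly lists lie between 0.25 and 0.35, and that of the proliferation list at -3.76.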

How the data were processed

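RNA from 6 libraries of mouse intestinal organoids was sequenced after a stranded mRNA kit with molecular identifiers, per the labels' protocols. The submitters' processing notes name STAR 2.5.3a and the build mm10. Counting program, annotation, strand setting and use of the identifiers in counting were not given in the sources used here. Per gene symbol, the authors deposited raw counts, 1 column per library, matched to samples by title. Values of 1 to 8 counts were even in 72.6% to 78.7% of cases per library, so a count may not stand for a separate molecule, and no counting interval is printed.

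From the counts, genes were filtered with filterByExpr (minimum count 10, minimum total 15; 12139 of 24786 rows kept, of 17057 above 0) and TMM factors came to 0.962 to 1.04. Groups were compared by quasi-likelihood in edgeR 4.0.16 under R 4.3.3 (robust, group as the only term, all 6 libraries), with Benjamini-Hochberg adjustment over all genes tested and a threshold of 0.05. CPM use the TMM-scaled library size, and each SE was taken from the fitted log2 value and its F statistic. The scripts were tested on simulated counts. Positions and transcripts are those of GENCODE M21 (GRCm38) matched by symbol, and promoters those of RefSeq on GRCm38.p6. Chi-square per degree of freedom between replicates was 26.9 to 35.1 in controls and 53.3 to 100.4 with tyramine.

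Members and lists were chosen with earlier results of these data known, and role groups and other lists come from general knowledge of the pathway. All 48 members may be named. Values in every library were given for up to 3 called members per role group with the smallest p, for all members of groups of 3, and for some chosen after their values were seen (Ncl, Nip7). Of other lists, up to 3 called genes with the smallest p were named, plus Myc and Mki67, and all called genes where a count was 5 or fewer. Alternatives were DESeq2-type (RLE) factors, library totals alone, no filter, a minimum count of 50, DESeq2 1.42.0, limma-voom (limma 3.58.1), robust estimation off, a replicate block and each library left out.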

Additional observations from a re-analysis of the deposited data

How the results depend on the processing

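The median of the members stayed above that of all genes tested by 0.21 to 0.31 on the log2 scale in all 14 alternatives. Its own value was 0.16 with library totals alone and 0.22 to 0.28 with each library left out. The causes of the shifts given here were not tested.

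Leaving out each library in turn gave 934 to 1510 rising and 1035 to 1797 falling genes of all tested, and 2 to 8 rising members. By role, these fits gave 0 to 1 rising polymerase I genes, 0 to 1 rising box C/D genes, 0 to 3 rising scaffold genes, 1 to 4 rising small subunit genes and 1 to 4 rising large subunit genes. In the other lists they gave 0 to 2 rising polymerase I genes, 6 to 18 rising and 0 to 2 falling small subunit genes, 0 to 1 falling large subunit genes, 0 to 3 rising and 0 to 2 falling ribosomal protein genes, 2 to 7 rising and 0 to 1 falling polymerase III genes, 0 to 3 rising and 0 to 2 falling nuclease genes, and 1 to 3 falling MYC network genes.

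With library totals alone, 4 members rose and 3 fell, with 0 rising polymerase I genes, 0 rising and 1 falling box C/D gene, 2 falling scaffold genes, 1 rising small subunit gene, 1 rising and 3 falling ribosomal protein genes, 1 falling polymerase III gene, 1 rising and 2 falling nuclease genes and 2 falling genes among the other small subunit genes. With no filter, 5 members rose, with 0 polymerase I genes, 1 small subunit gene, 2 of the other polymerase I genes and 2 ribosomal protein genes. DESeq2 called 10 members rising and 1 falling, with 2 scaffold genes rising and 1 falling. It also called 2 of the other polymerase I genes rising, 2 of the other small subunit genes falling and 1 polymerase III gene falling. Limma-voom called 11 members rising and 1 falling, with 2 scaffold genes rising and 1 falling and 4 small subunit members rising. It also called 2 of the other small subunit genes, 1 polymerase III gene and 2 nuclease genes falling. The minimum count of 50 gave 10 rising members, with 2 rising scaffold genes. It also gave 2 of the other polymerase I genes rising, 2 of the other small subunit genes falling and 1 polymerase III gene falling. RLE factors gave 1 rising small subunit member and 2 falling among the other small subunit genes, and robust estimation off gave 1 rising small subunit member.

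Same-numbered libraries did not deviate together (r = -0.019, -0.010 and 0.011 for replicates 1 to 3), so the numbers pair nothing that the data show. With the replicate block, 5 members rose, with 0 polymerase I genes and 1 small subunit gene, and the other lists gave 2 falling small subunit genes, 1 rising and 0 falling ribosomal protein genes, 3 rising polymerase III genes and 1 rising and 0 falling nuclease genes.

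Fitted values changed sign in at least 1 alternative in 10 members, which lay between -0.17 (Fbl) and 0.26 (Utp15) with all libraries. With totals alone Ltv1 was at -0.072 and Rrp1b at -0.066. With each library left out the ranges were -0.13 to 0.052 for Taf1d, -0.45 to 0.087 for Fbl, -0.26 to 0.033 for Dkc1, -0.21 to 0.021 for Ncl, -0.0036 to 0.48 for Utp15, -0.22 to 0.096 for Noc4l, -0.11 to 0.17 for Ltv1, -0.068 to 0.28 for Nop16, -0.13 to 0.34 for Wdr12 and -0.079 to 0.11 for Rrp1b. None of these 10 was past the threshold in any alternative. Rrp9 and Noc3l kept their calls in all 14.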

Other observations

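Genes of RNA polymerase III, which makes the 5S ribosomal RNA and transfer RNAs, were also measured. Among 22 of them, 7 rose (31.8%), 0 fell and 15 missed the threshold (edgeR, with 1 falling at an unadjusted p under 0.05 and 1 falling each by DESeq2 and limma-voom), beside 12.5% rising over all genes, and the count of 7 became 3, 4 and 2 when control replicates 1, 2 and 3 were left out and 4 without tyramine replicate 2. Polr3d, a polymerase subunit, rose 1.71-fold from 71.0 ± 14.1 to 122 ± 11.3 CPM (SD, n = 3; edgeR adjusted p = 0.00674). Maf1, a repressor of this polymerase, measured 6.55, 13.2 and 11.7 CPM in controls and 28.3, 24.0 and 33.6 CPM with tyramine, a 2.73-fold rise (1.45 on the log2 scale with SE 0.32, edgeR adjusted p = 0.00856). Bdp1, part of the initiation factor of the polymerase, rose 1.75-fold and lost its call without control replicate 1 or 3.

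Of 28 tested exosome and ribosomal RNA trimming genes, Pop1 and Skiv2l2 rose, Exosc8 fell and 25 were not past the threshold. These shares were 7.14% rising and 3.57% falling, against 12.5% and 13.3% of all genes. Pop1, a protein of the RNase MRP and RNase P particles, rose 1.85-fold, Skiv2l2, a helicase that feeds RNA to the nuclear exosome, 1.30-fold, and Exosc8, an exosome subunit, fell 2.18-fold. All 3 lost their calls without any 1 control library.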
